A study of Mus musculus with 6 samples.

Results

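The epidermal differentiation complex (EDC) is a cluster of genes on mouse chromosome 3 that supplies the structural proteins of the outer skin barrier. Its members were taken as every row of the count table on that chromosome whose Ensembl identifier belongs to a gene named *Lce* with a digit, *Sprr* or *S100a*, or to *Flg*, *Flg2*, *Hrnr*, *Rptn*, *Tchh*, *Tchhl1*, *Ivl*, *Crnn*, *Crct1*, *Kprp* or *Loricrin*. This gave 65 genes of the 55536 listed, namely 21 *Lce*, 18 *Sprr* and 15 *S100a* genes, 7 fused S100 genes, and 4 further precursors of the cornified envelope. In the GENCODE vM39 annotation of GRCm39 they run from *S100a13* to *S100a10* (chr3:90416091-93474510), a stretch of 3.06 Mb.

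Reads were counted in basal keratinocytes sorted as Epcam+ α6+ cells from the dorsal skin of E16.5 embryos, with 3 Ctrl and 3 TKO libraries. Ctrl embryos were Suv39h1 f/f, Suv39h2-/-, Setdb1 f/f and K14CreERT2-, and TKO embryos had the same alleles with K14CreERT2+, so that both groups lacked *Suv39h2* and both received tamoxifen. The study lists its bulk RNA-seq litters as mosaic, with tamoxifen at E9.5, E10.5 and E11.5, and the recombinase acts only where the *Krt14* promoter is active. Ctrl 1 and TKO 2 were female and the other 4 libraries male. The study's methods speak of biological replicates and the labels number the libraries without naming embryos or litters, so the p-values measure the spread between these libraries.

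Total counts were 102159175, 136515436 and 104422632 in Ctrl 1, 2 and 3, and 116308383, 108957256 and 118413082 in TKO 1, 2 and 3. A level of 3 counts, used as the smallest detectable, corresponded to between 0.0232 and 0.0303 counts per 1000000 counts of the library (CPM), which covers counting error only. *Setdb1* was at 126, 118 and 121 CPM in Ctrl and 95.3, 62.3 and 74.9 CPM in TKO, a log2 fold change of -0.65 (SE 0.161) with an adjusted p of 0.286 by edgeR's quasi-likelihood test with Benjamini-Hochberg adjustment and 0.0449 by DESeq2. The TKO libraries all lay below the Ctrl libraries. *Suv39h1* (log2 fold change -0.10, adjusted p = 0.9998 by the same edgeR test) and *Suv39h2* (0.11, adjusted p = 0.9998) were counted at overlapping levels in both groups, and counts over the whole gene do not check a deletion of part of it. The basal markers *Krt5*, *Krt14* and *Itga6* were present in all 6 libraries, with *Krt5* between 6994 and 12320 CPM. *Krt1* and *Krt10*, keratins of the first suprabasal layer, were also abundant, at 6100 CPM or more and 5694 CPM or more.

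Keratinocytes leave the basal layer and pass through spinous and granular stages before they die as flat, cornified cells. In the granular stage, transglutaminases crosslink involucrin, loricrin and the small proline-rich proteins into a cornified envelope under the plasma membrane, and late cornified envelope proteins are added last. The fused S100 proteins, filaggrin among them, are long repeat proteins released from granules that bundle keratin and hold water. The small S100 proteins are calcium-binding proteins, several of which are made well below the granular layer.

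The promoters of several envelope genes carry the same short elements, and 5 of them are shown here because *Sprr1b* had non-overlapping groups and the other 4 genes did not. RefSeq gave 59 promoters for 55 of the 65 genes (GRCm38.p6, an older build than that of the gene positions above). Below are the 150 bases just before the annotated start of 5 of these genes, on the strand of the gene. Capitals mark TGANTCA, the core of the AP-1 element, and TATAAA, the TATA box. The stretches are chr3:92438780-92438929 for *Sprr1b*, chr3:92485882-92486031 for *Sprr1a*, chr3:92083143-92083292 for *Loricrin* and chr3:92573736-92573885 for *Ivl*, all on the minus strand, and chr3:93319599-93319748 on the plus strand for *Hrnr*.
Sprr1b: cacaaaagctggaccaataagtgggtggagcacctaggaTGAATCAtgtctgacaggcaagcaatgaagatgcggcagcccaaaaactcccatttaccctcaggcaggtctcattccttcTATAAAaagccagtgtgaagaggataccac
Sprr1a: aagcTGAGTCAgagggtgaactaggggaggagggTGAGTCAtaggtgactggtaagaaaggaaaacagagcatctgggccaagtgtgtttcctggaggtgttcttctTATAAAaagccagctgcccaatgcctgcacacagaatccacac
Loricrin: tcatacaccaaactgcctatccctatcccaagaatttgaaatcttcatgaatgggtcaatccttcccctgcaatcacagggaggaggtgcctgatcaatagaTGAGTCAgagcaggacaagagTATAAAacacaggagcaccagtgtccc
Ivl: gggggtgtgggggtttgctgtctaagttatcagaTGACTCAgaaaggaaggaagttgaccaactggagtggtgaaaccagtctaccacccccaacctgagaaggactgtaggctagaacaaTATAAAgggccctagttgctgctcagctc
Hrnr: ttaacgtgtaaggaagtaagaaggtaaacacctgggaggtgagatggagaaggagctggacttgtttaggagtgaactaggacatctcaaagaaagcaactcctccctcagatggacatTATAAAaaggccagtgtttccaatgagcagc

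In the window shown, *Sprr1a* held 2 matches to TGANTCA, *Sprr1b*, *Loricrin* and *Ivl* held 1 each, and *Hrnr* held 0. TATAAA occurred 1 time in each of the 5. Within the 250 bases before the start, on either strand, TGANTCA was found in 19 of the 59 EDC promoters (32.2%) and in 6.75% of all 32851 promoters, and TATAAA in 24 (40.7%) against 12.4%. The share with TGANTCA was 37.2% of the 43 promoters outside the *S100a* class and 18.8% of the 16 within it. CACCC, the core that KLF factors bind, was found in 49.2% of EDC promoters and 52% of all. The Grainyhead-like letters AACCGGTT were in 0 EDC promoters and 0.116% of all. None of these motifs contains the letters of another, and a match is a description of the letters and not of a bound site.

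Most of the cluster had few or no reads in these libraries of sorted cells. No read was counted in any library for 12 of the 65 genes, namely *Lce1c*, *Lce1d*, *Lce1i*, *Lce1l*, *Lce3b*, *Lce3c*, *Lce3e*, *Sprr2c-ps*, *Sprr2e*, *Sprr2f*, *S100a5* and *S100a7l2*, and 20 genes had at most 3 counts in every library. After the filter on low counts 25 EDC genes were left among 20622 tested, and these were 10 *S100a*, 6 *Sprr*, 5 fused S100 and 3 envelope precursor genes with *Lce6a*. A gene was called when its adjusted p was under 0.05 and its absolute log2 fold change above 1. By edgeR's quasi-likelihood test 0 of the 25 were called, where 0.131% of all tested genes were called higher and 0% lower in TKO. At an unadjusted p under 0.05, 2 were higher (4.06% of all tested genes) and 0 lower (2.02%), and DESeq2 called the same 2 higher (0.936% of the genes it tested) and 0 lower (0.102%). They were *Sprr2a3* and *Sprr1b*. TKO libraries all lay above Ctrl for those 2 genes (6.35% of all tested genes) and all below for *Flg2* (5.11%), while for the other 22 the groups overlapped. The median log2 fold change of the 25 was -0.09 against 0.01 for all tested genes, with 11 positive and 14 negative values, where 51.8% of all tested genes had a positive value.

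**Figure D1:**
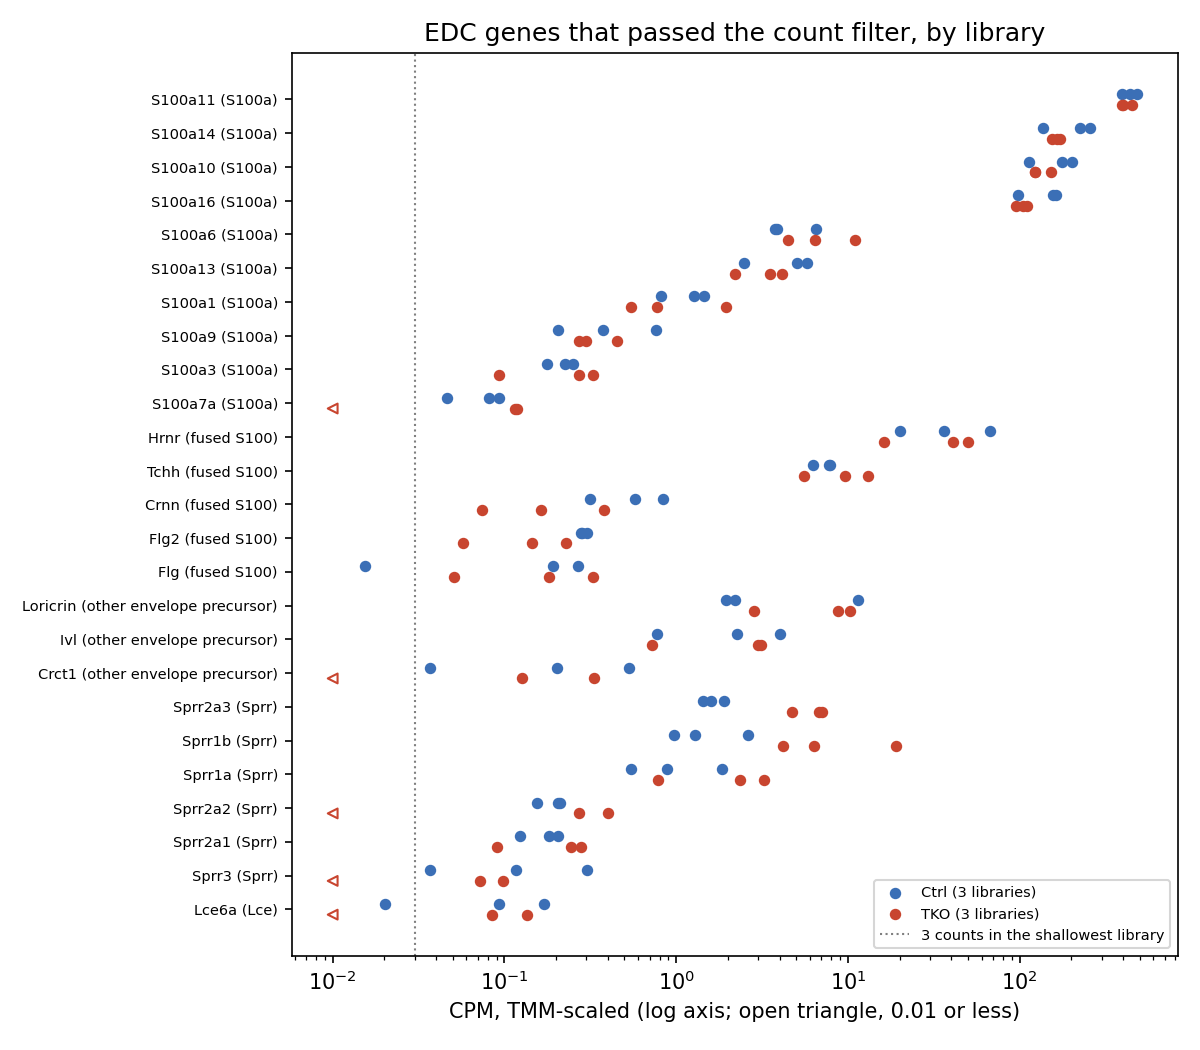
CPM on a log axis for the 25 EDC genes that passed the count filter, grouped by class; each filled point is a library (blue Ctrl, red TKO, 3 each), open triangles are libraries at 0.01 CPM or less, and the dotted line is the level of 3 counts in the shallowest library. The classes span from S100a11, between 395 and 484 CPM, to genes around the dotted line, and only Sprr2a3, Sprr1b and Flg2 have groups that do not overlap.

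**Figure D2:**
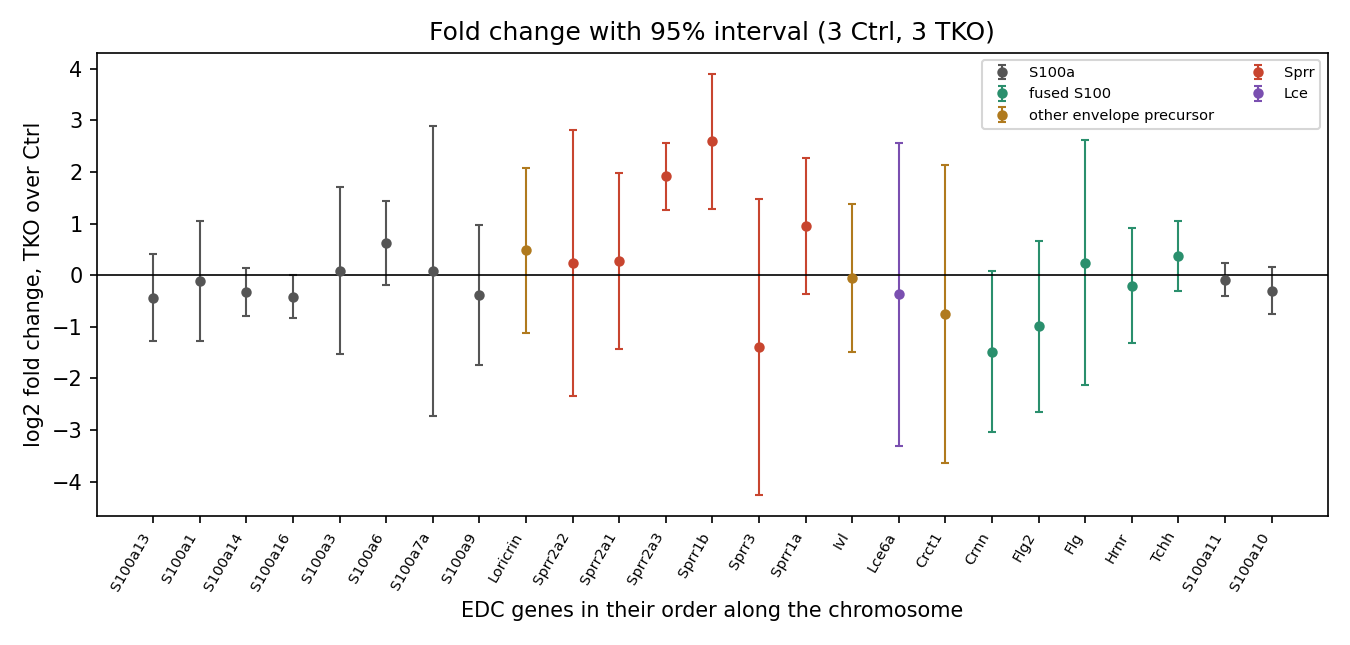
Log2 fold change of TKO over Ctrl (points) with its 95% interval (bars) for the same 25 genes in their order along the chromosome, coloured by class. The intervals of Sprr2a3 (1.27 to 2.57) and Sprr1b (1.29 to 3.90) lie above 0 and the others cross it.

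The small proline-rich genes held the largest differences between the groups. The proteins they encode are crosslinked bridges of the cornified envelope, and their amounts are known to rise in stressed or wounded epidermis. Summed over the 18 *Sprr* genes, the level was 5.55, 4.19 and 5.13 CPM in Ctrl 1, 2 and 3 and 16.8, 30.0 and 9.92 CPM in TKO 1, 2 and 3. All 3 TKO libraries were above all 3 Ctrl libraries, and the mean was 3.81 times as high in TKO. *Sprr1b* gave 48.0% of this sum. Of the TKO mean of 18.9 CPM, 9.83 came from *Sprr1b* and 6.20 from *Sprr2a3*. The separation of the sums thus rested mostly on these 2 genes and does not describe the class as a whole. For the other 4 *Sprr* genes tested the groups overlapped. For the 6 *Sprr* genes tested the median log2 fold change was 0.61, with 5 positive and 1 negative value, but apart from *Sprr2a3* and *Sprr1b* none had an unadjusted p under 0.05.

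*Sprr2a3* (chr3:92192724-92198712, plus strand) was at 1.59, 1.89 and 1.43 CPM in Ctrl 1, 2 and 3 and at 7.09, 6.79 and 4.70 CPM in TKO 1, 2 and 3. The lowest TKO library was above the highest Ctrl library, and neither group was spread widely. The log2 fold change was 1.92 (SE 0.291, 95% interval 1.27 to 2.57). Its adjusted p was 0.0502 by edgeR's quasi-likelihood test with Benjamini-Hochberg adjustment, just outside the threshold, and 3.8e-09 by DESeq2's Wald test. It passed the edgeR threshold with RLE size factors (adjusted p = 0.0481), without robust estimation (0.0453) and without TMM factors (0.0364). It also passed with the replicate number as a block (0.0361 by edgeR), though the labels do not say whether that number marks a litter. With a library left out, it passed the edgeR threshold only without TKO 3 (adjusted p = 0.0294), and without any of the other 5 the adjusted p lay between 0.157 and 0.251.

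*Sprr2a3* shares part of its sequence with *Sprr2a1* and *Sprr2a2*, so some of its reads could have been assigned among them or left out of the counts. *Sprr2a1* and *Sprr2a2* are annotated over the same ground on the same strand. Of the distinct 100-base stretches in the annotated transcripts of *Sprr2a1*, 93.1% also occur in transcripts of another EDC gene, and for *Sprr2a2* and *Sprr2a3* the shares were 90.6% and 36.2%. The RefSeq promoter windows of *Sprr2a1* and *Sprr2a2* are identical over all 300 bases, and that of *Sprr2a3* shares an unbroken run of 272 bases with them. The 150 bases before the RefSeq start of *Sprr2a3* (chr3:92285154-92285303, plus strand, GRCm38.p6) hold neither TGANTCA nor TATAAA, so the sequence is printed without capitals.
Sprr2a3: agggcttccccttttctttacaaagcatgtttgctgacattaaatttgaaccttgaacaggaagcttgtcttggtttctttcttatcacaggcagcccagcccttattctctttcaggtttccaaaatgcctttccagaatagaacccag
Summed over the 3 genes, the counts were 197, 280 and 198 in Ctrl and 900, 821 and 583 in TKO. Fitted as 1 feature, an alternative added after the data were seen, they gave a log2 fold change of 1.73 (SE 0.284) and an adjusted p of 0.0756 by edgeR's test. *Sprr2a1* and *Sprr2a2* taken alone were under 0.40 CPM in every library, with log2 fold changes of 0.27 and 0.23 and overlapping groups. The counting program is not stated, and a sum over the genes would not hold shared reads that were left out.

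*Sprr1b* (chr3:92344116-92346096, minus strand) was at 1.28, 0.975 and 2.63 CPM in Ctrl 1, 2 and 3 and at 6.35, 18.9 and 4.20 CPM in TKO 1, 2 and 3. The groups did not overlap, but TKO 2 stood far above the other TKO libraries. The log2 fold change was 2.59 (SE 0.584, 95% interval 1.29 to 3.90) and the adjusted p 0.214 by edgeR's quasi-likelihood test, against 5.6e-05 by DESeq2. Without TKO 2 the log2 fold change was 1.69 (adjusted p = 0.785 by edgeR). On average *Sprr1b* was at 1.97 RPKM (CPM divided by the exon length in kilobases) in Ctrl and 11.8 in TKO, and that TKO mean was above the group means of *Loricrin*, *Ivl* and *Hrnr* on the same scale.

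*Sprr1a*, the close relative of *Sprr1b*, was at 1.86, 0.882 and 0.547 CPM in Ctrl 1, 2 and 3 and at 2.36, 3.24 and 0.781 CPM in TKO 1, 2 and 3. TKO 1 and TKO 2 were above all Ctrl libraries while TKO 3 lay within their range. The log2 fold change was 0.96 (95% interval -0.36 to 2.28, adjusted p = 0.9998 by edgeR), and it ranged from 0.52 to 1.57 with a library left out. *Sprr3* had 30, 15 and 4 counts in Ctrl and 0, 8 and 12 in TKO, and its log2 fold change of -1.39 had an interval from -4.25 to 1.47.

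The other 12 *Sprr* genes did not pass the count filter, and the largest count of any of them was 20. *Sprr2d* had 0 counts in the Ctrl libraries and 9, 0 and 6 in TKO. *Sprr2h* had 3, 1 and 0 in Ctrl and 18, 12 and 0 in TKO. *Sprr2g* had 20 counts in TKO 1 and 0 elsewhere. *Sprr2j-ps*, a pseudogene by its symbol but typed as protein-coding in GENCODE vM39, was counted only in TKO 1 and TKO 2, at 4 and 9. In the opposite direction *Sprr2b* had 5, 0 and 6 counts in Ctrl and 0 in all TKO libraries. *Sprr2i*, *Sprr2k*, *Sprr4* and *Sprr5* had at most 7 counts in any library. Together the 12 genes had 12, 7 and 8 counts in Ctrl and 51, 33 and 6 in TKO, so TKO 3 was no higher than the Ctrl libraries. No fold is given for them, because most of these counts lay at or under the floor of 3.

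**Figure D3:**
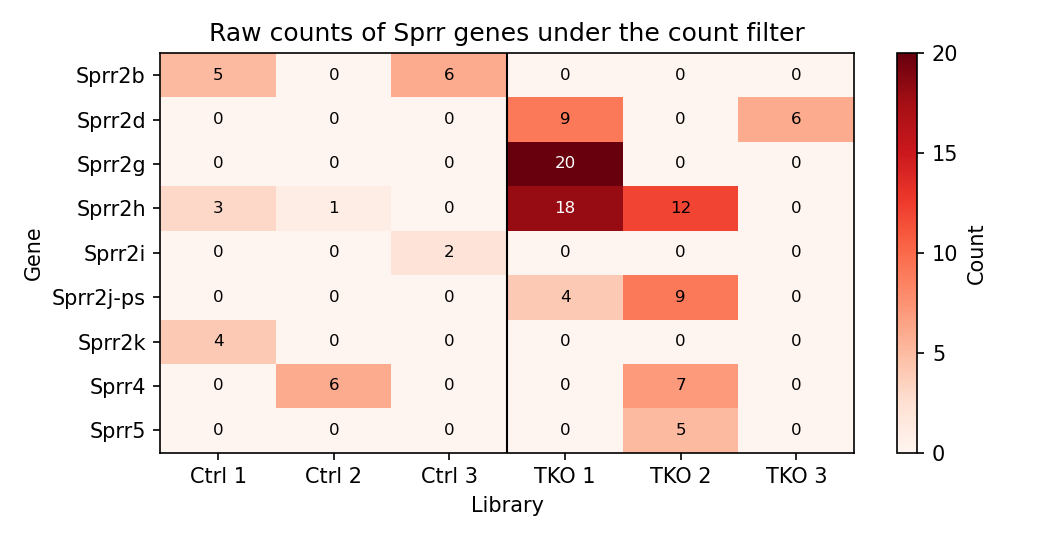
Raw counts of the 9 Sprr genes under the count filter that had at least 1 count, by library; darker red is a higher count and the black line divides Ctrl from TKO. The larger counts, 20 for Sprr2g and 18 and 12 for Sprr2h, stand in TKO 1 and TKO 2, and TKO 3 has 6 counts in all.

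*Loricrin* and *Ivl* are the best known precursors of the envelope, loricrin being its most abundant protein and involucrin an early scaffold. *Loricrin* (chr3:91987578-91990449, minus strand) was at 1.94, 11.4 and 2.21 CPM in Ctrl 1, 2 and 3 and at 10.2, 8.71 and 2.85 CPM in TKO 1, 2 and 3. Ctrl 2 was the highest library and the groups overlapped. The log2 fold change of 0.49 (SE 0.705, 95% interval -1.11 to 2.08) had an adjusted p of 0.9998 by edgeR, and without Ctrl 2 it was 1.81.

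*Ivl* (chr3:92478209-92481042, minus strand) was at 0.777, 4.03 and 2.26 CPM in Ctrl 1, 2 and 3 and at 2.99, 3.12 and 0.724 CPM in TKO 1, 2 and 3. Again Ctrl 2 was the highest and TKO 3 the lowest, and the groups covered nearly the same range. Its log2 fold change was -0.05 (SE 0.641, 95% interval -1.49 to 1.38), an interval that takes in a doubling and a halving. *Crct1* had 20, 69 and 4 counts in Ctrl and 39, 14 and 0 in TKO, with a log2 fold change of -0.76 and overlapping groups. *Kprp*, which was not tested, had 4, 20 and 0 counts in Ctrl and 0, 4 and 0 in TKO.

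Among the fused S100 genes *Hrnr*, encoding hornerin, held 80.6% of the class sum. It was at 20.1, 66.9 and 36.2 CPM in Ctrl 1, 2 and 3 and at 49.7, 40.8 and 16.3 CPM in TKO 1, 2 and 3. Ctrl 2 was highest, TKO 3 lowest and the groups overlapped, with a log2 fold change of -0.21 (SE 0.485, adjusted p = 0.9998 by edgeR). *Tchh*, which encodes trichohyalin of the inner root sheath, was at 7.78, 7.89 and 6.24 CPM in Ctrl and at 9.64, 13.1 and 5.53 CPM in TKO. TKO 3 was below and the other TKO libraries above all Ctrl libraries, with a log2 fold change of 0.37 (95% interval -0.30 to 1.04).

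The filaggrin genes were barely read. *Flg*, whose product is processed into the moisturising factor of the skin, had 19, 2 and 29 counts in Ctrl and 6, 20 and 40 in TKO, and the groups overlapped. *Flg2* had 28, 39 and 30 counts in Ctrl and 27, 16 and 7 in TKO, or 0.283, 0.302 and 0.278 CPM against 0.229, 0.145 and 0.0576 CPM. All TKO libraries were lower than all Ctrl libraries, but the log2 fold change of -0.99 (SE 0.743) had an unadjusted p of 0.211 and an adjusted p of 0.9998 by edgeR. *Crnn*, encoding cornulin, was at 0.313, 0.844 and 0.575 CPM in Ctrl and 0.382, 0.163 and 0.074 CPM in TKO. TKO 1 lay within the Ctrl range and the other TKO libraries below it, and the log2 fold change of -1.48 had an interval from -3.04 to 0.08 and was -2.29 without TKO 1. *Rptn* (repetin) had 6, 0 and 16 counts in Ctrl and 6, 0 and 9 in TKO, and *Tchhl1* had 6 counts in Ctrl 3 and 0 elsewhere.

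The 21 *Lce* genes, which act last in building the envelope, had 15, 78 and 20 counts together in Ctrl and 18, 16 and 44 in TKO. In Ctrl 2 and TKO 3, the libraries with most, these counts were spread differently, as 37 of the 44 in TKO 3 came from *Lce1a1*, which had 0 in the other TKO libraries. *Lce6a* was the only member to pass the filter, with 2, 22 and 10 counts in Ctrl and 10, 15 and 0 in TKO (log2 fold change -0.37, 95% interval -3.31 to 2.56). At these counts only a large change in an *Lce* gene could have been seen.

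The small S100 genes accounted for most EDC reads. Their summed level was 1005, 1118 and 750 CPM in Ctrl 1, 2 and 3 and 802, 867 and 813 CPM in TKO 1, 2 and 3, and *S100a11* gave 47.8% of it. The Ctrl libraries spread on both sides of the TKO libraries. *S100a11* (chr3:93414382-93435293, plus strand), a calcium-binding protein that is also crosslinked into the envelope, was at 438, 484 and 395 CPM in Ctrl and 398, 448 and 396 CPM in TKO. These ranges overlapped almost wholly, and the log2 fold change was -0.09 (SE 0.142, 95% interval -0.40 to 0.23).

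Per unit of length the most abundant EDC genes in Ctrl were *S100a11* (164 RPKM), *S100a14* (106 RPKM), *S100a16* (27.5 RPKM) and *S100a10* (23.6 RPKM), and *Hrnr* followed at 3.67 RPKM and *Loricrin* at 2.64 RPKM. *S100a10*, the partner of annexin A2, was at 176, 202 and 113 CPM in Ctrl and 123, 152 and 123 CPM in TKO. *S100a14* was at 224, 256 and 136 CPM in Ctrl and 166, 154 and 173 CPM in TKO. *S100a16* was at 156, 162 and 97.7 CPM in Ctrl and 105, 95.8 and 110 CPM in TKO. For all 3 genes Ctrl 1 and Ctrl 2 were above the TKO libraries and Ctrl 3 was within or below them. The log2 fold changes were -0.30 (SE 0.204), -0.32 (SE 0.210) and -0.42 (SE 0.188), and the smallest p was that of *S100a16*, at 0.0508 unadjusted and 0.824 adjusted by edgeR.

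*S100a6* (calcyclin) was the S100 gene with the highest positive difference, at 3.78, 6.52 and 3.84 CPM in Ctrl and 4.50, 10.9 and 6.42 CPM in TKO. The groups overlapped through Ctrl 2, and the log2 fold change was 0.63 (95% interval -0.18 to 1.44). *S100a13* and *S100a1* are annotated on opposite strands of overlapping ground, and since no strand setting is stated their reads cannot be told apart. Their log2 fold changes were -0.43 and -0.12. *S100a1* was at 1.26, 1.45 and 0.816 CPM in Ctrl and 0.544, 0.770 and 1.94 CPM in TKO, so TKO 3 lay above and the other TKO libraries below all Ctrl libraries. *S100a3* and *S100a7a*, both under 0.33 CPM in every library, had log2 fold changes of 0.09 and 0.09 with overlapping groups. *S100a2* had 4 counts in Ctrl 1 and 3 in TKO 1, and *S100a4*, a gene of fibroblasts and other mesenchymal cells, had 3 counts in TKO 1 and 0 elsewhere.

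*S100a8* and *S100a9* encode calprotectin, which neutrophils carry in bulk and which keratinocytes make in inflamed skin. *S100a8* had 4, 10 and 0 counts in Ctrl and 15, 2 and 13 in TKO, and *S100a9* 37, 98 and 22 in Ctrl and 35, 30 and 55 in TKO. The groups overlapped for each. A list of 10 neutrophil granule markers summed to between 0.340 and 1.49 CPM in every library, and *Elane* was at 0 in 5 of the 6 libraries. Pooled over libraries *Csf3r* was the most abundant, through 1.1 CPM in TKO 2. On average in Ctrl *Prtn3* was above it, at 0.255 against 0.223 CPM. *Prtn3* of that list was counted in all 6 libraries, at 27, 29 and 29 counts in Ctrl and 13, 3 and 8 in TKO, with a log2 fold change of -1.89 (unadjusted p = 0.048 by edgeR), while the other 2 tested, *Csf3r* and *Mmp8*, had 0.86 and 0.93. *Csf3r* had 20, 47 and 11 counts in Ctrl and 4, 122 and 10 in TKO, so its positive value rested on TKO 2.

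Across libraries *Loricrin*, *Ivl* and *Hrnr* shared a pattern that cut across the groups. *Loricrin*, *Ivl* and *Hrnr* were each highest in Ctrl 2, and in TKO each was lowest in TKO 3. The highest library exceeded the lowest 5.87 times for *Loricrin*, 5.57 times for *Ivl* and 4.10 times for *Hrnr*, but 1.65 times for *Krt1*, 1.66 times for *Krt10* and 1.22 times for *S100a11*. Of the 15 tested EDC genes outside the *S100a* class, 9 had Ctrl 2 as the highest Ctrl library and TKO 3 as the lowest TKO library at once (60%), compared with 17.1% of all tested genes and 2 of 10 *S100a* genes. Taken singly, Ctrl 2 was the highest Ctrl library in 60% of these 15 genes, in 80% of the *S100a* genes and in 34.1% of all tested genes, and TKO 3 was the lowest TKO library in 86.7%, 20% and 42%. In a list of 30 differentiation genes on other chromosomes the shares were 40% for Ctrl 2, 56.7% for TKO 3 and 23.3% for both at once. *Krt77* of that list had the same order, at 38.2, 77.3 and 48.8 CPM in Ctrl and 95.3, 98.7 and 14.4 CPM in TKO. *Flg* ran the other way, being lowest of all libraries in Ctrl 2 and highest in TKO 3, and the summed *Lce* counts were highest among TKO libraries in TKO 3. These genes were measured in the same libraries, so the shares are a description. *Loricrin*, *Ivl* and *Hrnr*, from which the order was read, are themselves counted among the 9 of 15 genes. *Sprr2a3*, *Sprr1b* and *Sprr1a* also had TKO 3 as the lowest TKO library, but Ctrl 2 was the lowest Ctrl library for *Sprr1b*. In bulk RNA a library with fewer granular cells and a library with less RNA per granular cell cannot be told apart.

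**Figure D4:**
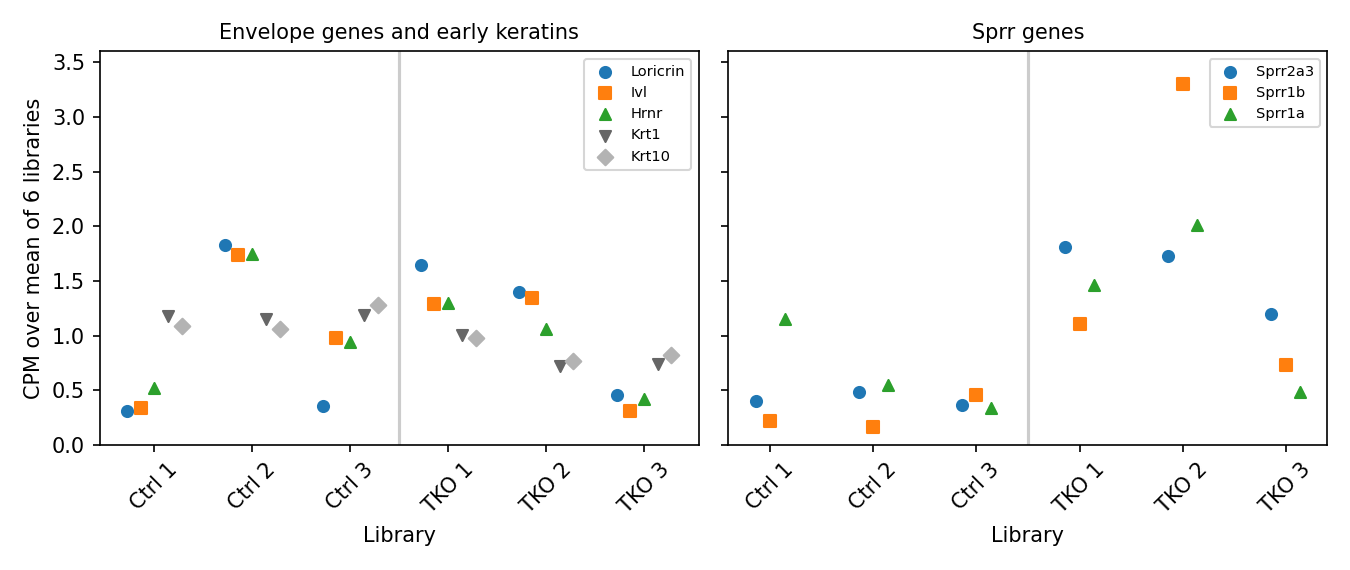
CPM of each gene divided by its mean over the 6 libraries, for Loricrin, Ivl and Hrnr beside the early keratins Krt1 and Krt10 (left) and for 3 Sprr genes (right); each point is a library and the grey line divides Ctrl from TKO. Loricrin, Ivl and Hrnr are high in Ctrl 2, TKO 1 and TKO 2 and low in Ctrl 1 and TKO 3, while all TKO points of Sprr2a3 and Sprr1b lie above their Ctrl points.

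With sex as a factor the log2 fold changes were 1.91 for *Sprr2a3* and 2.29 for *Sprr1b*, with adjusted p of 0.109 and 0.392 by edgeR.

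Genes that lie between the EDC members were compared in the same fit. Of 51 other annotated genes in the interval 8 were tested, and edgeR called 0 (0.131% of all tested genes higher and 0% lower), with 0 at an unadjusted p under 0.05 (4.06% and 2.02%) and 0 called by DESeq2 (0.936% and 0.102%). With 8 genes, counts of 0 are near these shares. *Pglyrp3*, a peptidoglycan recognition protein gene in the interval, had the largest log2 fold change at 0.89 (unadjusted p = 0.0717), and *Pglyrp4* had -0.35, which was -1.01 without TKO 3 and -0.10 without TKO 2.

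Differentiation genes on other chromosomes were compared through a list of 30, all of which were tested. EdgeR called 0 (0.131% of all tested genes higher and 0% lower), and DESeq2 called 0 (0.936% and 0.102% of the genes it tested). At an unadjusted p under 0.05 in edgeR 1 was higher (4.06% of all tested genes) and 3 lower (2.02%), with a median log2 fold change of -0.21. *Krt1* was at 9973, 9778 and 10070 CPM in Ctrl and 8516, 6100 and 6305 CPM in TKO. *Krt10* was at 8073, 7868 and 9475 CPM in Ctrl and 7258, 5694 and 6094 CPM in TKO. For these 2 keratins of the 30 genes every TKO library lay below every Ctrl library, as for 5.11% of all tested genes, with log2 fold changes of -0.51 (SE 0.178) and -0.42 (SE 0.170) and adjusted p of 0.658 and 0.762 by edgeR. *Krt2*, a keratin of the upper layers, had a log2 fold change of -1.68 (unadjusted p = 0.0195), which was -2.39 without TKO 1.

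*Scel*, which encodes the envelope precursor sciellin, was the gene of that list with a positive difference at this level. It was at 4.28, 7.99 and 5.79 CPM in Ctrl and 10.99, 17.9 and 6.29 CPM in TKO. TKO 3 lay within the Ctrl range, and the log2 fold change was 0.96 (SE 0.370, adjusted p = 0.733 by edgeR). The transglutaminases *Tgm1* and *Tgm3*, which crosslink the envelope, had log2 fold changes with unadjusted p of 0.492 and 0.249.

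Of 33 regulators known to act on the complex 32 were tested, and edgeR called 0 (0.131% of all tested genes higher and 0% lower). At an unadjusted p under 0.05 in edgeR 2 were higher (4.06% of all tested genes) and 1 lower (2.02%). DESeq2 called *Hopx* higher (0.936% of the genes it tested) and 0 lower (0.102%). *Hopx*, a homeodomain-only protein gene expressed in differentiating keratinocytes, was at 2.80, 3.44 and 1.65 CPM in Ctrl and 8.17, 13.2 and 5.83 CPM in TKO. All TKO libraries were above all Ctrl libraries, and the log2 fold change was 1.78 (SE 0.373), with an adjusted p of 0.182 by edgeR and 1.7e-04 by DESeq2. With the replicate number as a block the adjusted p was 0.0305 by edgeR. *Nfe2l2*, encoding the stress factor Nrf2, had a log2 fold change of 0.36 (unadjusted p = 0.0395) and *Pou3f1* of -1.05 (unadjusted p = 0.0374, adjusted p = 0.779 by edgeR). All TKO libraries were below all Ctrl libraries for *Pou3f1*, and its log2 fold change was -0.68 without TKO 2 and -1.74 without TKO 3, where it was called (adjusted p = 0.0476 by edgeR). Among the most studied regulators, *Trp63*, *Klf4* and *Grhl3* had unadjusted p of 0.640, 0.871 and 0.750. The AP-1 genes *Fos*, *Fosl2*, *Jun* and *Junb* had unadjusted p of 0.295, 0.254, 0.410 and 0.808.

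Markers of other cell types were read beside the *Sprr* difference. All 10 skeletal muscle markers had positive log2 fold changes, with sums of 3.11, 4.71 and 4.78 CPM in Ctrl and 10.4, 16.4 and 17.5 CPM in TKO. *Myh3* was called (log2 fold change 2.61, adjusted p = 0.0211 by edgeR). On average it was the most abundant of them in TKO (3.90 CPM), while in Ctrl *Actn2* was above it (0.785 against 0.639 CPM). DESeq2 called 4 of the 10 higher, *Myh3*, *Myh8*, *Acta1* and *Actn2*, where it called 0.936% of all genes it tested higher, edgeR called 0.131% and 51.8% had positive values. All 5 tested of 6 Merkel cell markers had negative log2 fold changes, and the sum was 16.3, 18.4 and 19.7 CPM in Ctrl and 7.44, 10.5 and 10.9 CPM in TKO, with *Piezo2* the most abundant. At an unadjusted p under 0.05 in edgeR 4 were lower (2.02% of all tested genes), and for 4 all TKO libraries lay below all Ctrl libraries (5.11%). EdgeR called 0 lower (0% of all tested genes), and DESeq2 called *Isl1* lower (0.102% of the genes it tested). Immune cell markers summed to 21.95, 38.5 and 14.1 CPM in Ctrl and 7.79, 58.8 and 19.96 CPM in TKO, led by *Csf1r*. Endothelial markers, all 6 with positive log2 fold changes, summed to 29.6, 28.6 and 40.6 CPM in Ctrl and 27.3, 68.5 and 55.0 CPM in TKO, led by *Cdh5*. Erythroid markers, 5 of 6 positive, summed to 20.1, 77.8 and 68.4 CPM in Ctrl and 65.5, 79.6 and 141 CPM in TKO. On average *Hba-a1* led them in Ctrl (21.9 CPM) and *Hbb-bs* in TKO (36.4 CPM). Fibroblast markers, 3 of 10 positive, were far more abundant, led by *Col1a1*. They summed to 1766, 4449 and 3687 CPM in Ctrl and 2904, 3035 and 3381 CPM in TKO. Ctrl 1 was the lowest and Ctrl 2 the highest library for this sum. TKO 2, the library with the highest *Sprr1b*, also had the highest immune, endothelial and neutrophil sums, and *Krt6a*, a keratin of periderm and stressed epidermis, was at 13.7 CPM there and at 3.37 CPM or less in the other 5 libraries. Among periderm and simple epithelium markers 5 of 9 had positive log2 fold changes, with *Krt8* at -1.92 (adjusted p = 0.113 by edgeR and 4.9e-06 by DESeq2) and *Krt6b* at 2.25 (adjusted p = 0.342 by edgeR and 0.0165 by DESeq2). In the fibroblast, hair follicle, melanocyte, endothelial, Schwann cell and erythroid lists edgeR called 0 genes, with 1 higher at an unadjusted p under 0.05 in each of the hair follicle, melanocyte and endothelial lists (4.06% of all tested genes) and 1 melanocyte gene, *Mlana*, called by DESeq2. Of 16 basal keratinocyte markers 11 had positive and 5 negative log2 fold changes, with a median of 0.05. *Krt15* was the lowest of them at -1.18 (adjusted p = 0.185 by edgeR and 6.6e-04 by DESeq2). The part of these cells in the *Sprr* levels was not tested.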

How the data were processed

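The authors depleted rRNA, trimmed paired reads with fastp, mapped them with STAR and deposited whole-number read counts for each Ensembl identifier, neither normalized nor pooled. The methods name GRCm39 and the submitters' processing notes GRCm38. The counting program, annotation and strand setting are not given in the sources used here. Of 55536 identifiers, 51477 matched GENCODE vM39, which gave symbols, positions and exon lengths.

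Genes were kept by filterByExpr (minimum count 10, minimum total 15), scaled by TMM and compared with glmQLFit (robust) and glmQLFTest in edgeR 4.0.16 under R 4.3.3, fitted and adjusted over 20622 genes. DESeq2 1.42.0 was an alternative. Values in CPM are scaled to TMM library sizes. On simulated counts for this comparison edgeR recovered 166 of 200 changed genes among 19928, with 3 false calls. The changed genes all lay above a CPM cut and had absolute log2 fold changes above 1. Their spread between libraries followed the fitted trend, without the excess of single genes. The share recovered therefore does not give the power for the EDC genes. Motifs and shared stretches were counted in Python 3.11.15.

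Members and gene lists were chosen with earlier results of these data known. Every member may be named. From the lists and the neighbouring genes, called genes, the 3 with the smallest p and the most abundant were eligible, and other genes were chosen after their values were seen. Protein sequences were not used here, so copies were compared by transcript.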

Additional observations from a re-analysis of the deposited data

How the results depend on the processing

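The count of EDC genes called was 0 with edgeR as reported. It was 1 with RLE size factors, 1 with the replicate block, 1 without robust estimation and 1 with library totals without TMM factors, and each time this was *Sprr2a3*. With DESeq2 on the same genes, with its standard workflow and with no low-count filter it was 2, *Sprr2a3* and *Sprr1b*. Leaving out each library in turn gave 0 to 1. For *Sprr2a3* itself the log2 fold change stayed between 1.80 and 2.08 and the edgeR and DESeq2 adjusted p between 3.8e-09 and 0.251. Across all genes, 27 were called higher as reported, 193 with DESeq2 on the same genes, 198 with its standard workflow, 213 with no filter, 9 with at least 10 counts in every library, 44 with the replicate block, 11 at an adjusted p under 0.01 and 7 to 65 with a library left out. Called lower were 0 as reported, and 21, 29, 22 and 1 with DESeq2, its standard workflow, no filter and the block, and 0 to 16 with a library left out (16 without TKO 3). Regulators called were 0, and 1 with either DESeq2 workflow, no filter and the block (*Hopx*), and 0 to 1 with a library left out (*Pou3f1* without TKO 3). The median of the EDC genes ranged from -0.34 with no filter, which moved the median of all genes to -0.11, to 0.11 without Ctrl 2. Of 26 genes followed through the settings, 21 kept their direction in every setting that tested them. Genes with under 10 counts in a library, *Flg* and *Flg2* among them, had no value under the filter on every library. Of the other tested EDC genes, *Sprr2a2*, *S100a3* and *S100a7a* turned with the replicate block, to -0.49, -0.05 and -0.39. *Ivl* turned to 0.089 with sex as a factor and 0.002 without TMM factors, and ranged from -0.47 to 0.58 with a library left out. So did *Flg* (-0.44 to 0.86), *Hrnr* (-0.54 to 0.34), *Crct1* (-2.04 to 0.35) and *Lce6a* (-1.15 to 0.36). The cause of these shifts was not tested. Deviations of same-numbered Ctrl and TKO libraries correlated at 0.168, 0.0873 and 0.127, and those of other pairs between -0.161 and 0.0398. Each library thus correlated best with its own number. The labels do not say that a number marks a litter, so the block was kept as an alternative and the samples were not paired. Depth limits the genes with few counts, most *Lce* and *Sprr2* genes among them, which were compared only in the settings with a looser filter (39 EDC genes in DESeq2's standard workflow and 53 with no filter).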
